A study of Mus musculus with 2 samples.

Results

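Scavenger receptors and the genes that handle heme and iron were followed in immune cells of mouse melanomas. The set holds 10 of the 27998 genes counted, taken by symbol: Mrc1, Cd163, Stab1, Msr1, Cd36, Hmox1, Slc40a1, Slc11a1, Fth1 and Tfrc. All 10 are in the deposited gene table. Tissue macrophages take up hemoglobin, dying cells, modified lipoproteins and glycoproteins through scavenger receptors, and break the heme down inside the cell. Heme oxygenase releases the iron, which is then stored in ferritin, moved across the phagosome membrane or exported through ferroportin. Macrophages that recycle iron are known for high ferroportin and heme oxygenase, and cells that divide are known for high transferrin receptor.

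3 of the 10 genes carry iron-responsive elements, hairpins in the untranslated parts of the transcript that iron regulatory proteins bind when iron is scarce. As background, an element in the 5′ UTR blocks translation when bound, and elements in the 3′ UTR protect the transcript from decay. The elements are shown because binding in the 3′ UTR acts on transcript level and binding in the 5′ UTR on translation. Transcript counts do not read translation. An element does not exclude other ways by which iron may change a transcript level, which were not tested. A search of GENCODE M21 transcripts (GRCm38, sense strand only, 30 bases printed 5′ to 3′, the loop of 6 bases in capitals) found the following.
Fth1 5′ UTR, chr19:9982732-9982761, plus strand: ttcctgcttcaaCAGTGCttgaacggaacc
Slc40a1 5′ UTR, chr1:45925464-45925493, minus strand: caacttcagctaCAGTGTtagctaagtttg
Tfrc 3′ UTR, chr16:32631219-32631248, plus strand: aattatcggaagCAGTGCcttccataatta
Tfrc 3′ UTR, chr16:32631598-32631627, plus strand: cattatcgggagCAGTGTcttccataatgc
Tfrc 3′ UTR, chr16:32631663-32631692, plus strand: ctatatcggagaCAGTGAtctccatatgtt
Tfrc 3′ UTR, chr16:32631710-32631739, plus strand: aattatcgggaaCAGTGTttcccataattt
The letters searched were a C, 5 bases of any kind and CAGTGN, with a last loop base other than G and the 5 bases paired with those that follow the loop. At least 1 match occurred in 222 of 21877 protein-coding genes (1.01%), and 2 or more in 2 genes (0.00914%), of which Tfrc, with 4, is 1. The other 7 genes had no match to these letters in a protein-coding transcript.

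The cells came from B16F10 tumors, a melanoma line, grown under the skin of C57BL/6 mice for 14 days. Control mice carried floxed Usp18 alleles (Usp18f/f), and mice of the other group carried the same floxed alleles with LysM-Cre, whose Cre sits in the Lyz2 locus and is active in myeloid cells. Both groups thus share the floxed alleles and differ by the Cre, and the control mice carry no Cre. Live CD45+ cells of 4 tumors per group were pooled into 1 droplet library, with a target of 8000 cells. Each group is 1 pool, so no difference has a replicate check or a p-value, and every interval given is a 95% interval that covers counting error only.

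The control library held 43412346 UMIs over 7754 barcodes and the other 48167632 over 6063, of which 6684 and 5466 cells were kept; 8 barcodes occurred in both. Usp18, the targeted gene, encodes a protease that removes ISG15 from proteins and dampens interferon signalling, and it went against its label. It measured 16.6 CPM (UMIs of a gene per 1000000 UMIs of the class) in control macrophage-like cells and 102 CPM in those of the other library, which is therefore called the library labelled knockout. In monocyte-like cells it measured 19.6 and 84.6 CPM. These are 3′ tags, and the sources used here do not say which exons the floxed alleles lose, so tags outside the deleted part would not check the deletion. Lyz2, displaced by Cre, went with the labels at 9229 and 17.1 CPM over both classes. Of the cells with Xist or Y-linked UMIs but not both, 36.3% of control cells and 86.1% of cells of the library labelled knockout held Xist, so the sex of the mice and the group cannot be told apart over whole libraries. Melanoma-like cells, 152 and 380 of them, passed the CD45 sort. Haemoglobin UMIs in monocyte-like cells numbered 8 and 2723, and 99.1% of the latter lay in 3 cells.

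Macrophage-like cells numbered 637 (control) and 1115 (labelled knockout), and monocyte-like cells 1116 and 1310. There were 843 and 711 dendritic-cell-like (DC-like) cells, and 535 and 28 neutrophil-like cells. The same clusters held the macrophage-like class in the 2 libraries, in different shares. A cluster led by Gas6, Igf1 and C1qc, a cycling cluster, and a chemokine-rich cluster led by Lipg, Ccl7 and Ccl12 held 60.8%, 25.9% and 13.3% of control macrophage-like cells. They held 41.5%, 17.1% and 41.3% in the library labelled knockout. The division between macrophage-like and monocyte-like cells moved with the settings. With doublets kept, the library labelled knockout held 781 and 1717 of them. With cells gated one by one on markers, the control library held 895 and 798. The monocyte-like clusters were led by Chil3 and Vcan (39.2% and 47.5% of the class), by Arg1, Ppbp and Cxcl3 (33.9% and 34.2%), and by Ace, Adgre4 and Treml4 (26.9% and 18.3%).

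**Figure D1:**
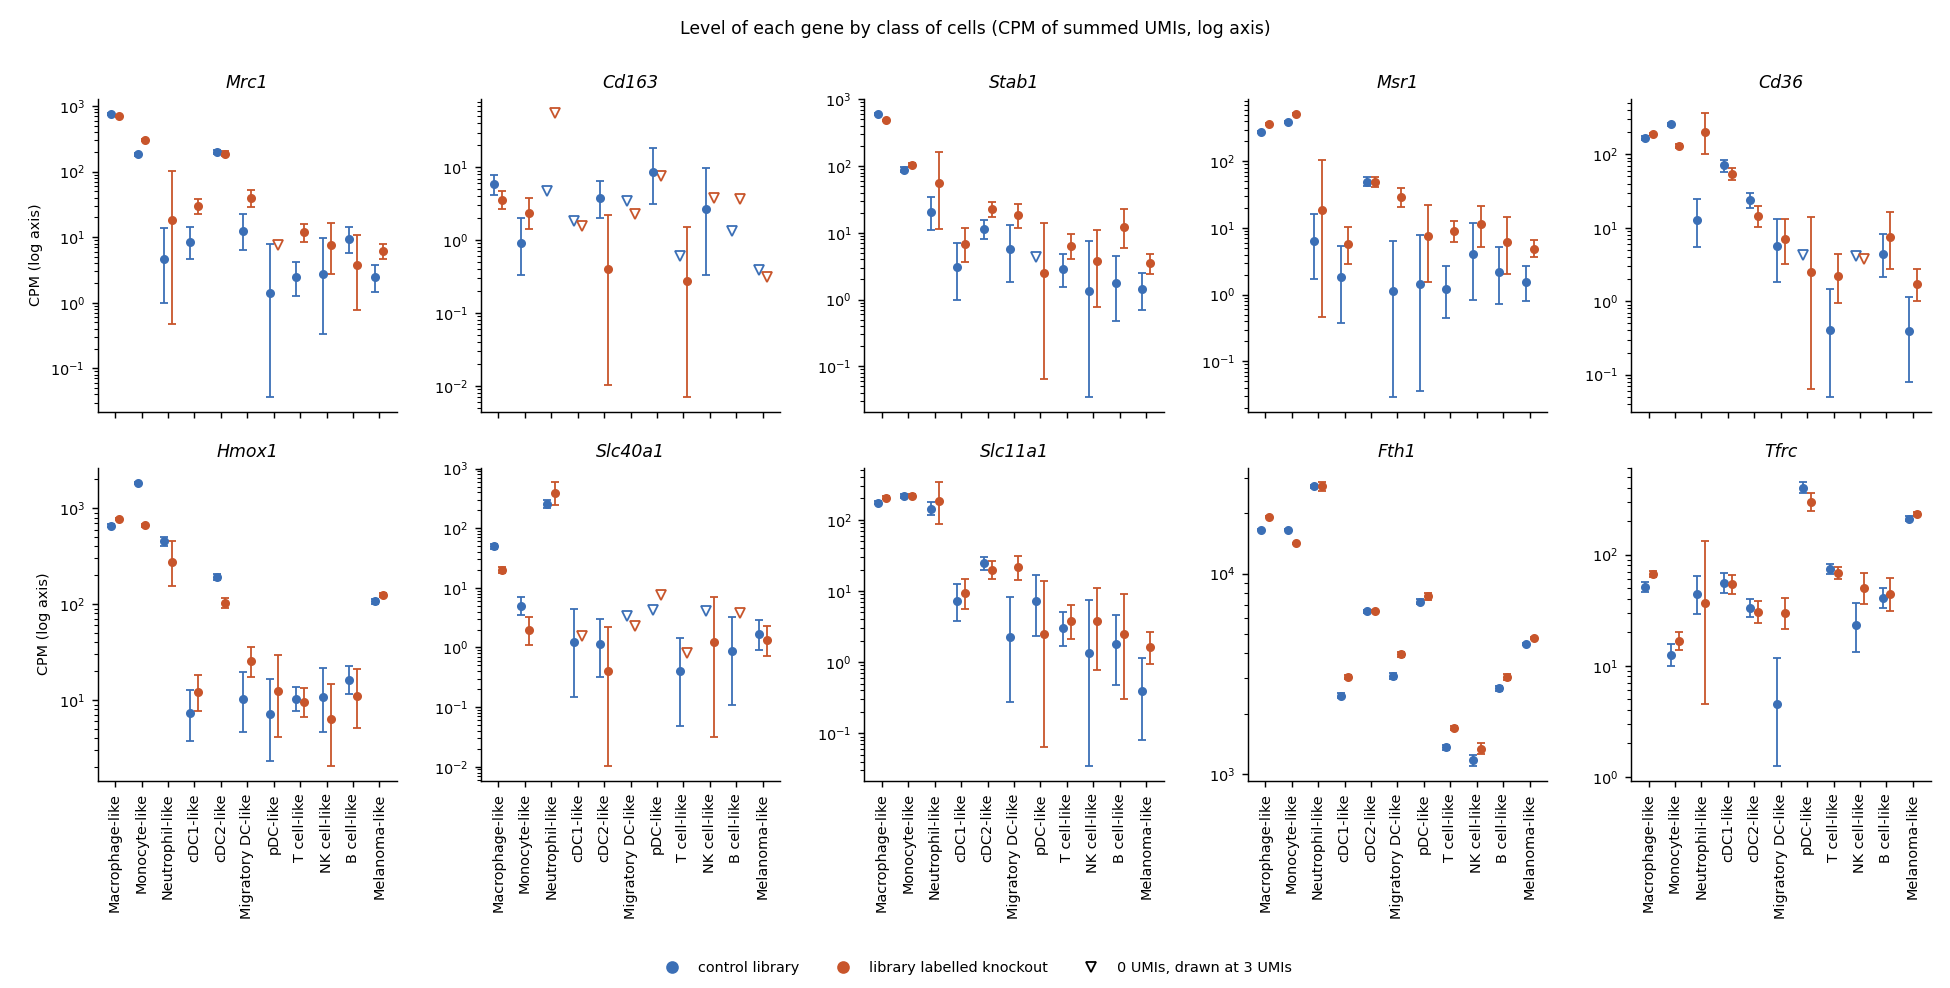
Level of each of the 10 genes in 11 classes of cells, in CPM on a log axis, for the control library (blue) and the library labelled knockout (orange). Points are summed UMIs of 1 library, bars are exact Poisson 95% intervals, and open triangles are classes with 0 UMIs, drawn at the level of 3 UMIs. Mrc1 and Stab1 are highest in macrophage-like cells of these classes, Slc40a1 in neutrophil-like cells and Tfrc in pDC-like cells in both libraries.

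In macrophage-like cells the gene that stood furthest apart between the libraries was Slc40a1, the ferroportin gene, at 49.7 and 19.8 CPM. In monocyte-like cells it was Hmox1, the heme oxygenase gene, at 1844 and 661 CPM, and Cd36, a receptor for lipids and lipoproteins, stood just inside a 2-fold difference at 256 and 129 CPM. These 3 were lower in the library labelled knockout. With 5 CPM added to each level, no member with at least 20 UMIs was 2-fold higher in any of the 4 myeloid classes. By plain CPM, Stab1 in DC-like cells was 2.10-fold higher (1.47 to 3.03) and Cd163 in monocyte-like cells 2.60-fold higher (0.990 to 8.01). Slc40a1 in monocyte-like cells was 2.54-fold lower (1.34 to 5.02), and Cd163 in DC-like cells 17.3-fold lower, from 19 and 1 UMIs.

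Counted over the set, 1 of 10 genes (Slc40a1) was at least 2-fold lower in macrophage-like cells, where 0.159% of 11307 genes with at least 20 UMIs were, and 0 of 10 were at least 2-fold higher, against 1.35% of all. Folds for these counts are log2 ratios of (CPM + 5), and 2-fold means a log2 ratio of 1 or more either way. A gene under 5 CPM in the control library cannot be called lower this way, and one under 5 CPM in the other cannot be called higher. The shares over all genes include such genes, whose number was not counted, while most members lay above 5 CPM. Members and all genes are thus not like for like. In monocyte-like cells 1 of 10 (Hmox1) was lower, against 0.192% of 10404 genes, and 0 were higher, against 1.17%. In DC-like cells 0 of 9 measured members were lower and 0 higher, against 0.135% and 0.993% of 11073 genes. In neutrophil-like cells 0 of 5 were lower and 0 higher, against 23% and 6.16% of 4108 genes, with only 28 cells in the library labelled knockout. The median log2 ratio of the members was 0.20 in macrophage-like, 0.12 in monocyte-like, -0.19 in DC-like and -0.0022 in neutrophil-like cells. Over all genes it was -0.04, -0.04, -0.02 and -0.30.

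**Figure D2:**
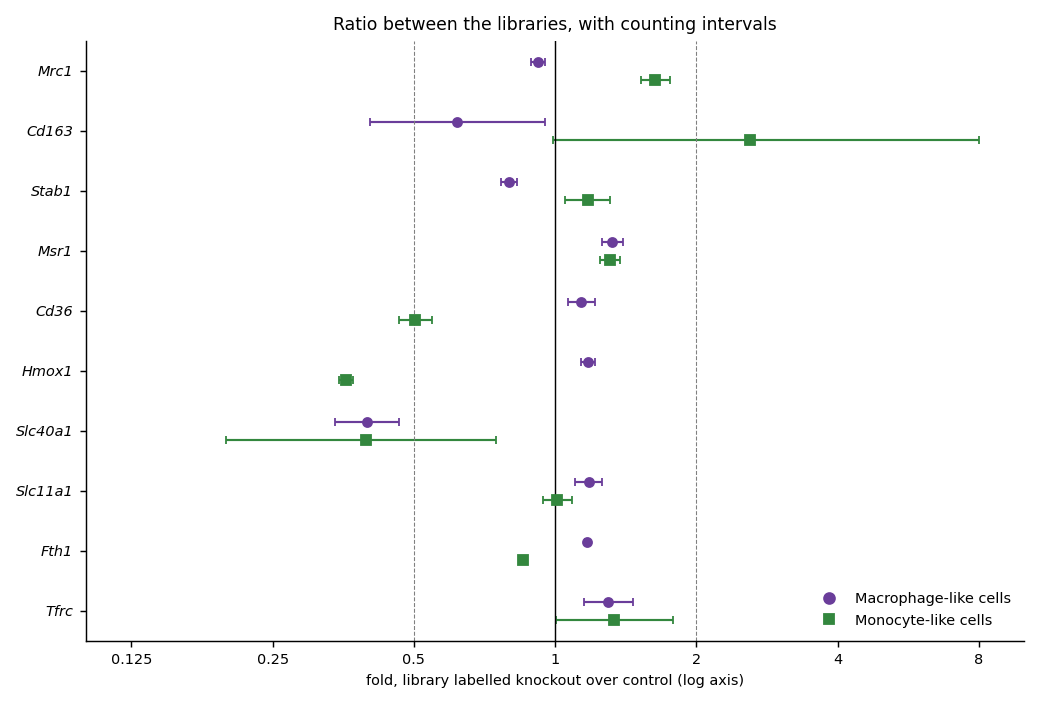
Fold of each gene in the library labelled knockout over control, on a log axis, in macrophage-like cells (circles) and monocyte-like cells (squares), with 95% counting intervals. Dashed lines mark 2-fold either way: Hmox1 and Cd36 sit on opposite sides of 1 in the 2 classes, and Slc40a1 sits below 1 in both.

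Mrc1 (ENSMUSG00000026712, chr2:14229392-14332057, plus strand, GRCm38) encodes the mannose receptor CD206, which takes up glycoproteins that end in mannose. Its level in macrophage-like cells was 761 CPM (742 to 782) in control cells and 700 CPM (686 to 714) in those labelled knockout. Monocyte-like cells held 184 CPM (174 to 195) and 301 CPM (289 to 313), a 1.63-fold higher value (1.52 to 1.75). The macrophage-like and monocyte-like levels lay closer together in the library labelled knockout, and macrophage-like cells had more in both. Within the monocyte-like class the Arg1 cluster stood out with 330 and 601 CPM, a ratio of 1.82 (1.67 to 1.99), while the Chil3 cluster had 148 and 165 CPM. In the Ace cluster Mrc1 was low, at 17.3 and 4.47 CPM. The 3 macrophage-like clusters lay at 820, 613 and 927 CPM in the control library and at 743, 560 and 739 CPM in the other, each lower in the library labelled knockout. The small difference in macrophage-like cells (log2 ratio -0.12) turned to 0.34 with a limit of 5% on mitochondrial UMIs and to 0.02 with cells gated one by one on markers.

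Among DC-like cells Mrc1 belonged mainly to the cDC2-like cells, with 201 and 187 CPM, an interval of the fold from 0.825 to 1.05. In cDC1-like cells it measured 8.51 CPM from 14 UMIs and 29.5 CPM from 56 UMIs, and 50.0% of the control UMIs lay in 1 cell. In migratory DC-like cells it measured 12.5 CPM from 11 UMIs, 81.8% of them in 1 cell, and 39.2 CPM from 51 UMIs. Other members were higher there too, Msr1 at 1.14 and 29.2 CPM, Stab1 at 5.70 and 18.5 CPM, Slc11a1 at 2.28 and 21.5 CPM and Tfrc with 4 and 39 UMIs. The 9 macrophage markers in migratory DC-like cells summed to 218 and 807 CPM, all detected in both libraries. Monocyte markers summed to 234 and 1183 CPM (7 and 9 of 9 detected, Chil3 and Vcan at 0 in the control library). T cell markers summed to 54.7 and 702 CPM and NK cell markers to 6.84 and 115 CPM. The part of these markers in the values was not tested. Lymphocytes were taken as a guide to the level from free RNA, and the source of their UMIs was not tested. B-cell-like cells held 9.30 and 3.72 CPM and T-cell-like cells 2.43 and 11.8 CPM.

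Cd163 (ENSMUSG00000008845, chr6:124304656-124330527, plus strand) encodes the receptor for hemoglobin bound to haptoglobin, and was close to absent. Macrophage-like cells held 43 control UMIs and 51 in those labelled knockout, 5.81 CPM (4.20 to 7.82) and 3.58 CPM (2.67 to 4.71). Monocyte-like cells held 6 and 18 UMIs, 0.918 and 2.39 CPM, and the interval of that fold (0.990 to 8.01) includes 1. No UMI was found in neutrophil-like cells, which allows up to 4.72 CPM (control) and 55.6 CPM (labelled knockout). Control pDC-like cells held 6 UMIs, 8.57 CPM (3.14 to 18.6), an interval that overlaps that of control macrophage-like cells. In pDC-like cells labelled knockout 0 UMIs were found, which allows up to 7.56 CPM. cDC2-like cells held 13 and 1 UMIs, 3.78 and 0.402 CPM. Most control UMIs that were in the macrophage-like class sat in the C1q cluster (19 UMIs) and in the chemokine-rich cluster (18 UMIs, 21.7 CPM). The chemokine-rich cluster held 22 UMIs and 4.55 CPM in the library labelled knockout.

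Stab1 (ENSMUSG00000042286, chr14:31139013-31168641, minus strand) encodes stabilin-1, an endocytic receptor of alternatively activated and tissue macrophages. Macrophage-like cells measured 607 CPM (589 to 625) and 484 CPM (472 to 495), 1.25-fold lower (1.21 to 1.30) in the library labelled knockout. Monocyte-like cells measured 88.0 CPM (81.0 to 95.5) and 103 CPM (96.1 to 111). Among the macrophage-like clusters, 1 had a fold whose interval excluded 1. The C1q cluster had 785 and 629 CPM, a fold of 0.801 (0.765 to 0.840), whereas the cycling cluster had 414 and 433 CPM and the chemokine-rich cluster 320 and 332 CPM, both with intervals of the fold that include 1. The chemokine-rich cluster, low in Stab1, held a larger part of the class in the library labelled knockout. With the clusters weighted alike in both libraries, an alternative added after the values were seen, the log2 ratio was -0.18, against -0.32. With a limit of 5% on mitochondrial UMIs it turned to 0.24.

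Msr1 (ENSMUSG00000025044, chr8:39581685-39642673, minus strand) encodes scavenger receptor A, which binds modified lipoproteins and bacterial products. It was higher in the library labelled knockout in both classes. Macrophage-like cells had 277 CPM (266 to 290) and 367 CPM (357 to 377), a fold of 1.32 (1.26 to 1.39). Monocyte-like cells had 393 CPM (378 to 409) and 515 CPM (499 to 532), a fold of 1.31 (1.25 to 1.38). Of the receptors it is the 1 with a higher level in monocyte-like than in macrophage-like cells in both libraries. The chemokine-rich cluster went the other way, with 638 and 505 CPM (fold 0.792, 0.720 to 0.872), and the other 5 clusters had folds between 1.17 and 1.27. With the clusters weighted alike the log2 ratio in macrophage-like cells was 0.01, against 0.40. In DC-like cells Msr1 was found in cDC2-like cells, at 49.7 and 49.4 CPM.

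Cd36 (ENSMUSG00000002944, chr5:17781690-17888801, minus strand) encodes a class B scavenger receptor that takes up fatty acids and oxidized lipoproteins. Its level in monocyte-like cells was 256 CPM (244 to 269) in control cells and 129 CPM (121 to 137) in those labelled knockout, 1.99-fold lower (1.83 to 2.15). Macrophage-like cells had 166 CPM (157 to 176) and 189 CPM (182 to 197), a fold of 1.14 (1.06 to 1.22). The order of the 2 classes was thus reversed between the libraries. The Arg1 monocyte-like cluster held 555 CPM (525 to 586) and 244 CPM (226 to 263), the Chil3 cluster 92.6 and 48.4 CPM, and the Ace cluster 102 and 110 CPM. Among macrophage-like clusters the chemokine-rich one resembled the Arg1 monocyte-like cluster, with 412 and 190 CPM, a fold of 0.461 (0.407 to 0.524). The C1q cluster had 156 and 213 CPM and the cycling cluster 103 and 144 CPM. The macrophage-like log2 ratio of 0.18 turned to -0.23 with the clusters weighted alike, to -0.14 after thinning and to -0.03 with a limit of 5% on mitochondrial UMIs, while the monocyte-like one, -0.96, was closest to 0 among cells with Xist, at -0.75.

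Beyond these classes Cd36 was highest in cDC1-like cells, at 70.5 CPM (58.2 to 84.5) and 54.2 CPM (44.3 to 65.8), whose fold includes 1 (0.584 to 1.01). cDC2-like cells had 23.5 and 14.5 CPM. Neutrophil-like cells of the library labelled knockout held 11 UMIs, 72.7% of them in 1 cell, so their 204 CPM rests on that cell. NK-cell-like cells held 0 UMIs in both libraries, which allows up to 4.07 and 3.77 CPM.

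Hmox1 (ENSMUSG00000005413, chr8:75093621-75100589, plus strand) encodes heme oxygenase-1, the inducible enzyme that opens the heme ring and frees its iron. Monocyte-like cells held 12045 UMIs in the control library, 1844 CPM (1811 to 1877), and 4979 UMIs in the library labelled knockout, 661 CPM (643 to 680). The level was 2.79-fold lower (2.70 to 2.88) there. Macrophage-like cells held 659 CPM (641 to 678) and 773 CPM (759 to 788), a fold of 1.17 (1.13 to 1.21), so that monocyte-like cells stood well above macrophage-like cells in the control library and below them in the other. The macrophage-like log2 ratio of 0.23 did not keep its direction. It was -0.04 with the clusters weighted alike, -0.05 with a limit of 5% on mitochondrial UMIs and -0.10 with cells gated one by one on markers.

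The Arg1 cluster carried most of the monocyte-like Hmox1. It held 9642 of the 12045 control UMIs, with 4220 CPM (4136 to 4305) against 1275 CPM (1234 to 1318) in the library labelled knockout, 3.31-fold lower. The Chil3 cluster had 759 CPM (727 to 792) and 351 CPM (332 to 371), 2.16-fold lower. In the Ace cluster the values were 166 and 163 CPM, a fold of 0.981 with an interval that includes 1. Of the macrophage-like clusters the chemokine-rich one was also lower, at 1275 and 819 CPM (fold 0.642, 0.600 to 0.688), the C1q cluster was higher, at 630 and 858 CPM (fold 1.36, 1.30 to 1.43), and the cycling cluster had 503 and 544 CPM.

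Hmox1 was also measured outside these classes. Neutrophil-like cells had 452 CPM (401 to 507) and 278 CPM (156 to 458), the latter from 15 UMIs. cDC2-like cells had 193 CPM and 102 CPM, and 48.2% of the UMIs of the library labelled knockout came from 1 cell. Melanoma-like cells had 107 CPM in the control library and a fold of 1.17 (1.07 to 1.28), and T-cell-like and B-cell-like cells between 9.60 and 16.4 CPM. Erythroid markers summed to 1.22 CPM in control monocyte-like cells and 364 CPM in the library labelled knockout. Without the cells that held at least 100 haemoglobin UMIs the log2 ratio of Hmox1 was -1.48, against -1.47 with them. Neutrophil markers in monocyte-like cells summed to 340 and 152 CPM, with all 9 detected in both libraries, and their part in the result was not tested.

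**Figure D3:**
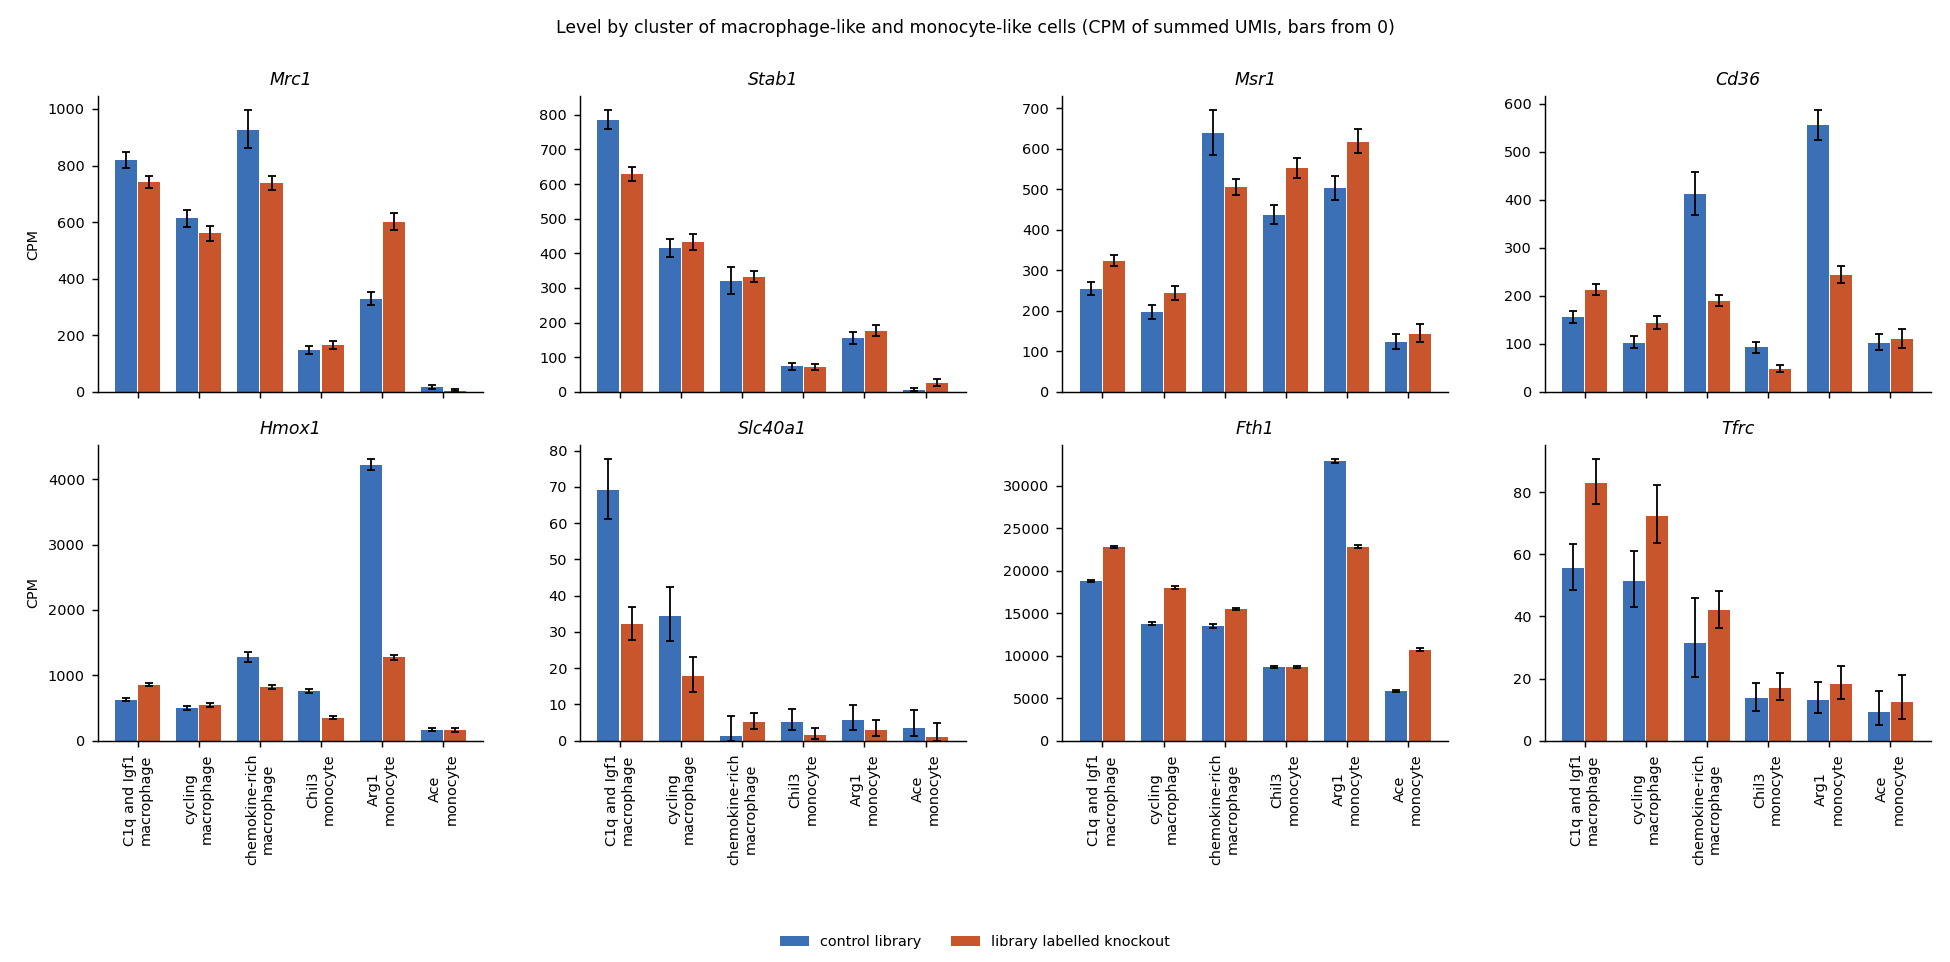
Level in CPM (bars from 0, with exact Poisson 95% intervals) of 8 genes in the 3 macrophage-like and 3 monocyte-like clusters, for the control library (blue) and the library labelled knockout (orange). Hmox1 and Cd36 are lower in the library labelled knockout in the Arg1 and Chil3 monocyte-like clusters and in the chemokine-rich cluster, and Slc40a1 is found in the C1q and cycling clusters, lower there.

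Slc40a1 (ENSMUSG00000025993, chr1:45908068-45926523, minus strand) encodes ferroportin, the exporter of cellular iron. Macrophage-like cells held 368 UMIs in the control library, 49.7 CPM (44.7 to 55.0), and 281 UMIs in the library labelled knockout, 19.8 CPM (17.5 to 22.2), 2.52-fold lower (2.15 to 2.95). The C1q cluster, with 280 of the 368 control UMIs, had 69.1 CPM (61.2 to 77.7) and 32.2 CPM (27.9 to 37.0), a fold of 0.466 (0.387 to 0.561). The cycling cluster had 34.5 and 17.9 CPM, a fold of 0.519 (0.366 to 0.732). The chemokine-rich cluster was almost without Slc40a1, with 1 UMI in the control library and 25 in the other, 5.17 CPM. The log2 ratio of -1.14 left the 2-fold side with the clusters weighted alike (-0.83), without the chemokine-rich cluster or with it counted as monocyte-like (-0.91), and with a limit of 5% on mitochondrial UMIs (-0.34). It did so too with doublets kept (-0.91), with cells gated one by one (-0.85), with a pseudocount of 20 CPM (-0.81) and among cells with Y-linked UMIs (-0.70), and it was below 0 under every alternative run. Monocyte-like cells held 33 and 15 UMIs, 5.05 CPM (3.48 to 7.09) and 1.99 CPM (1.12 to 3.29).

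The class with the highest Slc40a1 level was not macrophage-like. Neutrophil-like cells had 258 CPM (220 to 301) from 164 UMIs in 535 cells, and 389 CPM (241 to 595) from 21 UMIs in 28 cells. The fold between them (0.909 to 2.38) includes 1. Neutrophil markers in macrophage-like cells summed to 135 CPM in control cells and 67.6 CPM in those labelled knockout, all 9 detected in both, against 65884 CPM in control neutrophil-like cells. Monocyte markers in macrophage-like cells summed to 1353 and 2249 CPM (9 of 9 detected in both). Erythroid markers summed to 1.08 and 148 CPM, and 97.8% of the 2096 haemoglobin UMIs of the library labelled knockout lay in 3 cells. Without cells that held at least 100 haemoglobin UMIs the log2 ratio of Slc40a1 was -1.14, as with them. The part of the neutrophil and monocyte markers in the result was not tested. With 5% of each class total subtracted as free RNA, the log2 ratio in macrophage-like cells was -1.15. In migratory DC-like and pDC-like cells 0 UMIs were found in either library, which allows between 2.31 and 7.56 CPM.

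Slc11a1 (ENSMUSG00000026177, chr1:74375195-74386062, plus strand) encodes NRAMP1, which moves iron and manganese out of the phagosome. Of the 10 genes its ratio was closest to 1 in monocyte-like cells, at 216 CPM (205 to 228) and 219 CPM (208 to 230), with a fold between 0.941 and 1.09. Macrophage-like cells had 175 CPM (165 to 184) and 206 CPM (199 to 214), a fold of 1.18 (1.10 to 1.26). Neutrophil-like cells had 143 CPM and 185 CPM, the latter from 10 UMIs. All 3 classes lay within a narrow band, and DC-like cells had 15.6 and 15.8 CPM.

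Fth1 (ENSMUSG00000024661, chr19:9980598-9985098, plus strand) encodes the heavy chain of ferritin, the store of cellular iron, whose element is printed above. Its level was highest in neutrophil-like cells, 27228 CPM (26824 to 27637) and 27186 CPM (25813 to 28614), and 33.7% of the UMIs behind the latter came from 1 cell. Macrophage-like cells had 16496 and 19242 CPM, a fold of 1.17 (1.16 to 1.17), and monocyte-like cells 16548 and 14156 CPM, 1.17-fold lower (1.16 to 1.18). The 2 classes differed in direction.

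By cluster Fth1 went with Hmox1 in part. The Arg1 cluster had 32907 and 22853 CPM of Fth1, a fold of 0.694 (0.687 to 0.702). In the Chil3 cluster, where Hmox1 was lower, the values were 8671 and 8651 CPM. The Ace cluster had 5845 and 10722 CPM, 1.83-fold higher (1.78 to 1.89), which Hmox1 did not show. All 3 macrophage-like clusters were higher, with folds of 1.21, 1.31 and 1.15. In DC-like cells Fth1 was highest in pDC-like cells at 7243 and 7692 CPM.

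Tfrc (ENSMUSG00000022797, chr16:32608920-32632794, plus strand) encodes transferrin receptor 1, which brings transferrin-bound iron into the cell. Tfrc was not highest in macrophage-like, monocyte-like or neutrophil-like cells. It was highest in pDC-like cells, 401 CPM (356 to 451) and 297 CPM (246 to 356), followed by melanoma-like cells with 211 CPM (201 to 221) and 230 CPM (221 to 240). T-cell-like cells had 74.4 and 68.8 CPM, intervals that overlap. Macrophage-like cells had 51.4 CPM (46.4 to 56.9) and 66.7 CPM (62.5 to 71.1), 1.30-fold higher (1.15 to 1.46). Monocyte-like cells had 12.6 and 16.7 CPM.

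Within macrophage-like cells Tfrc was not highest in the cycling cluster. The C1q cluster had 55.5 and 83.1 CPM, the cycling cluster 51.5 and 72.5 CPM and the chemokine-rich cluster 31.4 and 42.0 CPM. The first and second of these had intervals that overlap in each library. The 12 genes of the cell cycle list had a median log2 ratio of -0.32 in macrophage-like cells, with Mki67 at 392 and 258 CPM and Top2a at 257 and 172 CPM, the opposite direction to Tfrc.

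Because the pools differ in sex, the ratios were recomputed among cells with Xist only and among cells with Y-linked UMIs only. Control and labelled-knockout macrophage-like cells numbered 156 and 695 with Xist, and 349 and 226 with Y-linked UMIs. Monocyte-like cells numbered 280 and 998, and 485 and 112. Hmox1 in monocyte-like cells was lower in both kinds, at 1221 and 622 CPM with Xist (fold 0.510, 0.482 to 0.539) and at 2058 and 612 CPM with Y-linked UMIs (fold 0.297, 0.268 to 0.329). Among cells with Xist its log2 ratio, -0.97, lay just inside the 2-fold limit. Cd36 in monocyte-like cells had folds of 0.587 and 0.582. Slc40a1 in macrophage-like cells was lower in both, at 90.2 and 18.1 CPM with Xist (fold 0.201) and at 38.7 and 21.9 CPM with Y-linked UMIs (fold 0.566, inside the 2-fold limit), and so was Stab1, with folds of 0.642 and 0.923. Tfrc in macrophage-like cells was higher in both, with folds of 1.36 and 1.29.

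Other values did not hold in both kinds of cell. Mrc1 in monocyte-like cells was 3.02-fold higher among cells with Xist (114 and 343 CPM) and had a fold of 0.628 among cells with Y-linked UMIs (198 and 124 CPM). Msr1 in monocyte-like cells had folds of 1.57 and 0.759, and Stab1 1.29 and 0.536. Fth1 went in opposite directions in macrophage-like cells (0.874 with Xist and 1.70 with Y-linked UMIs), as did Cd36 (0.790 and 1.65) and Mrc1 (1.24 and 0.756). The opposite directions of the macrophage-like and monocyte-like classes were found in both kinds of cell for Hmox1 (folds of 1.27 and 0.510 with Xist, 1.48 and 0.297 with Y-linked UMIs). For Stab1 they were found only among cells with Xist, for Cd36 only among cells with Y-linked UMIs, and for Mrc1 and Fth1 in neither kind.

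**Figure D4:**
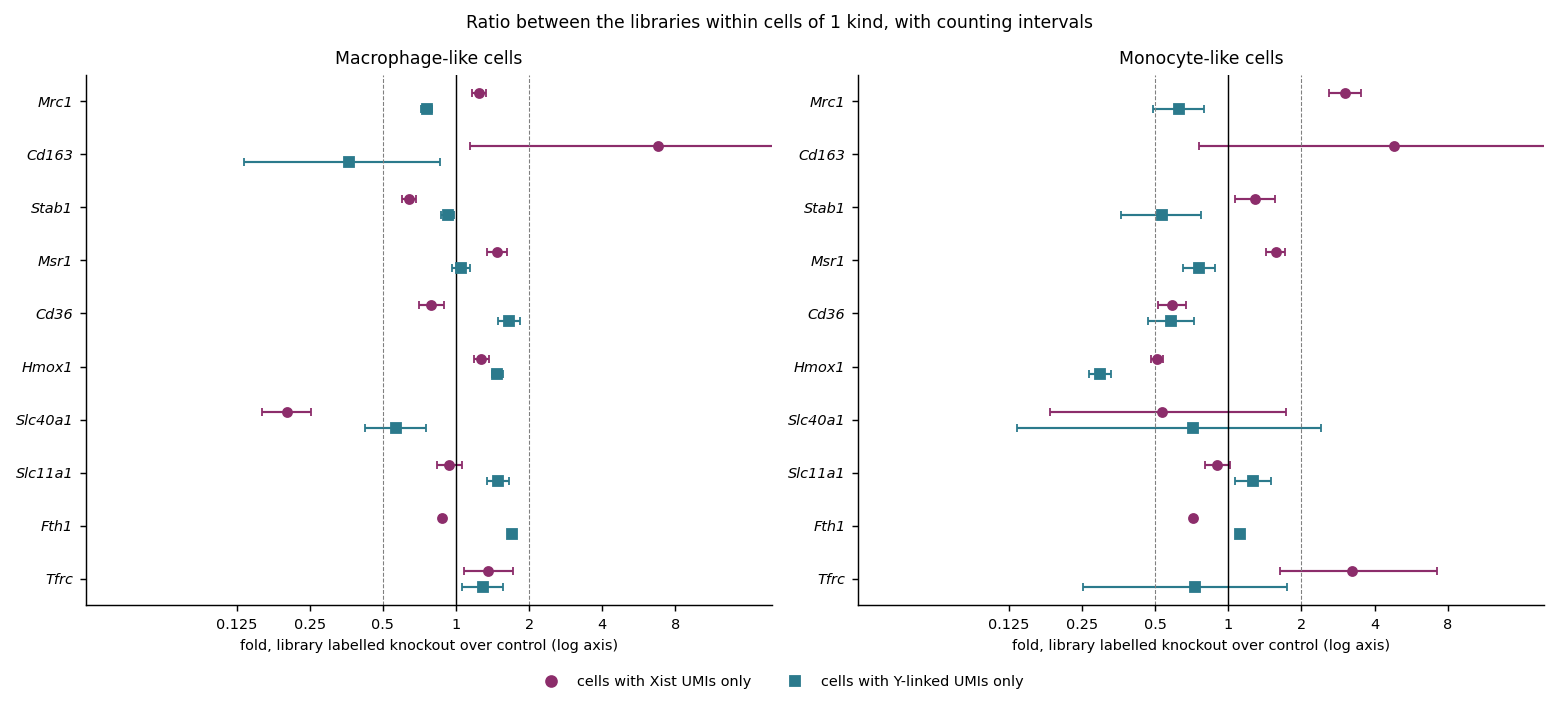
Fold of each gene in the library labelled knockout over control, on a log axis, in macrophage-like (left) and monocyte-like cells (right), among cells with Xist UMIs only (circles) and with Y-linked UMIs only (squares). Bars are 95% counting intervals, those of Cd163 run past the axis, and Cd163 had no UMI in 1 arm of the Y-linked monocyte-like cells; Hmox1 and Cd36 in monocyte-like cells and Slc40a1 in macrophage-like cells sit below 1 for both kinds.

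The share of cells with a UMI was compared after each cell was thinned to 1000 UMIs, with shallower cells left out (0 and 8 macrophage-like, 18 and 33 monocyte-like). Before thinning, median depths were 10379 and 10901 UMIs in macrophage-like cells, 5582 and 5359 in monocyte-like cells, and 1494 and 1761 in B-cell-like cells, which serve as the background of free RNA. Hmox1 was found in 38.3% of control monocyte-like cells (35.5 to 41.3) and 26.8% of those labelled knockout (24.4 to 29.3), against 1.08% and 0.946% of B-cell-like cells. Without thinning the monocyte-like shares were 63.8% and 55.7%. The share for Cd36 in monocyte-like cells was 17.0% (14.9 to 19.4) and 9.95% (8.36 to 11.7), and for Mrc1 8.93% (7.31 to 10.8) and 15.6% (13.6 to 17.7). These went with the CPM values. Unthinned, they were 33.2% and 21.5% for Cd36, and 22.8% and 30.4% for Mrc1. B-cell-like cells held Cd36 in 0.433% and 0.946% of thinned cells and Mrc1 in 0.649% and 0.473%.

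Slc40a1 was found in 4.24% (2.81 to 6.11) and 1.45% (0.828 to 2.34) of thinned macrophage-like cells, and in 17.3% and 11.4% unthinned. Thinned B-cell-like cells held it in 0.0722% (1 cell) and in 0 of 423 cells, which allows up to 0.709%. In monocyte-like cells 4 of 1098 and 1 of 1277 thinned cells held it, too few to be told from B-cell-like cells. From all UMIs the control level in monocyte-like cells, 5.05 CPM (3.48 to 7.09), lay above that in B-cell-like cells, 0.885 CPM (0.107 to 3.20). For Tfrc in pDC-like cells, with median depths of 4751 and 5026 UMIs, the shares were 32.4% (48 of 148 cells) and 19.0% (15 of 79), and 65.1% and 61.2% unthinned. Thinned B-cell-like cells held Tfrc in 4.69% and 4.26%.

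Cells were also read for transcripts found together, after thinning to 2000 UMIs. Among control monocyte-like cells with Hmox1, 34.8% held Cd36 (179 of 515), against 12.1% of those without (67 of 554). In the library labelled knockout the shares were 20.7% (94 of 454) and 8.76% (67 of 765). Of control macrophage-like cells, 40 of 334 with Stab1 held Slc40a1, and 9 of 297 without Stab1 (3.03%). In the library labelled knockout 12 of 454 (2.64%) and 10 of 615 (1.63%) did. Mrc1 and Stab1 were found together in 62.9% of control macrophage-like cells with Mrc1, against 34.4% of those without, and in 50.5% and 30.7% in the other library. The pairs were chosen with the levels known and the cells of 1 library are not replicates, so these shares are descriptions. They pool the clusters of a class. Among monocyte-like clusters Hmox1 and Cd36 were both highest in the Arg1 cluster. Among macrophage-like clusters Stab1 and Slc40a1 were both highest in the C1q cluster. Whether the genes went together within a cluster was not tested.

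The wider pathways were read from 5 lists of genes, and 2-fold again means a log2 ratio of (CPM + 5) of 1 or more either way. The limit for genes under 5 CPM, given above, holds here too. Over all genes, 0.159% were 2-fold lower and 1.35% higher in macrophage-like cells, and 0.192% and 1.17% in monocyte-like cells, with a median log2 ratio of -0.04 in each class. Among other scavenger and endocytic receptors, 10 of 19 genes were measured in macrophage-like cells and 8 in monocyte-like cells, and 0 were 2-fold higher or lower in either. Cd68, a lysosomal glycoprotein of phagocytes, had 832 and 938 CPM in macrophage-like cells and 527 and 588 CPM in monocyte-like cells. Lrp1, the receptor that takes up heme bound to hemopexin, had 450 and 448 CPM and 489 and 414 CPM. Cd14, a co-receptor for lipopolysaccharide, had 421 and 609 CPM in monocyte-like cells.

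Of the genes of heme synthesis, transport and breakdown, 19 of 21 were measured in each class, and again 0 were 2-fold apart. Blvrb, a biliverdin reductase that acts downstream of heme oxygenase, had 237 and 300 CPM in macrophage-like and 126 and 138 CPM in monocyte-like cells. Bach1, the repressor of Hmox1 that heme releases from DNA, had 236 and 256 CPM in monocyte-like cells. Nfe2l2, an activator of Hmox1, had 176 and 197 CPM there. Whether either regulator had a part in the Hmox1 values was not tested. Hmox2, the constitutive heme oxygenase, had 73.2 and 97.5 CPM in monocyte-like cells.

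Genes of iron uptake, storage, export and control numbered 17 measured in macrophage-like and 16 in monocyte-like cells of 25, with 0 past 2-fold. Their median log2 ratio was -0.10 and -0.24, against -0.04 in each class over all genes. Ftl1, the light chain of ferritin, had 12142 and 13133 CPM in macrophage-like cells and 10133 and 7881 CPM in monocyte-like cells, the same directions as Fth1. Trf, which encodes transferrin, had 117 and 66.8 CPM in macrophage-like cells. Among the 10 oxidative stress genes that Nfe2l2 controls, 9 were measured in each class, 0 were past 2-fold, and the median log2 ratio in monocyte-like cells was -0.20. Gsr, glutathione reductase, had 434 and 306 CPM there, and Slc7a11, the cystine transporter, 108 and 112 CPM. In DC-like cells 0 genes of the 5 lists were past 2-fold. In neutrophil-like cells, with 28 cells in the library labelled knockout, 1 of 3 receptors, 1 of 8 heme genes, 2 of 9 iron genes and 1 of 8 oxidative stress genes were past 2-fold lower, and 2 of 8 oxidative stress genes higher. Over all genes there, 23% were lower and 6.16% higher.

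Likeness was measured as Pearson's r of log2(CPM + 5) over 18 points, 9 named classes in each of the 2 libraries, which share libraries and depth, and is a description. Classes with fewer than 100 cells in either library were left out. Among them were neutrophil-like cells, where Slc40a1 and Fth1 were highest, and pDC-like cells, where Tfrc was highest, so likeness for these genes was read without their highest class. Among the members, Msr1 and Slc11a1 were most alike (r = 0.98), Fth1 and Hmox1 followed (0.94), and Tfrc had values between -0.32 and 0.09 with the other 9. Over all genes, those most like Mrc1 were Rab11fip5, Nxpe5 and Rab3il1 (0.99, 0.99 and 0.98), and those most like Stab1 were Gdf3, Rnase4 and Ms4a7 (each 0.98). C5ar1 led for both Msr1 and Slc11a1 (0.99 for each), followed by F13a1 and C3ar1 for Msr1 and by Msr1 and F13a1 for Slc11a1. For Hmox1 they were Fam20c, Hacd4 and Ctsl (0.97, 0.97 and 0.96), and for Fth1 Vps26a, Lamp2 and Myof (0.97, 0.97 and 0.95). Slc40a1 was most like Reps2, Cbr2 and Igf1 (0.97, 0.95 and 0.95), and Cd36 like Clec12a, Trpm2 and Psap (0.94, 0.93 and 0.93). Tfrc was most like Mrps26, Noa1 and Ruvbl1 (0.95, 0.93 and 0.93), and Cd163, near the limit of detection, like Ntpcr, Tpcn2 and Man1c1 (0.84, 0.83 and 0.83).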

How the data were processed

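Live CD45+ cells of 1 pool per group were measured with 10x 3′ v3 chemistry. The authors deposited raw UMI counts per gene and barcode, made with Cell Ranger 3.0.1 on mm10, per the submitters' processing notes; the annotation is not given in the sources used here. From these counts, barcodes under 200 genes or over 10% mitochondrial UMIs were dropped, and doublets called by a simulation score were left out (402 and 263). Cells were clustered with scanpy 1.11.5 and leidenalg 0.10.2 (Python 3.11.15, scikit-learn 1.9.0, scipy 1.17.1) on 2000 variable genes, 30 components and resolution 1. The members, the lists other than the cell cycle list, and a set of interferon-induced genes with Usp18 and Lyz2 were left out (176 genes). Clusters were named from marker lists, and the exact naming rule was set after the clusters were seen and before members' values were read; 1 of 24 stayed unnamed. UMIs were summed per class and library and given as CPM with exact Poisson intervals, folds with conditional exact intervals, and shares with Clopper-Pearson intervals. Log2 ratios used a pseudocount of 5 CPM, and genes with at least 20 UMIs over both libraries counted as measured. A level of 0 is given with the limit that 3 UMIs allow. With 1 library per group no test between groups was made. Scripts were tested on simulated data.

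The members and lists were chosen with earlier results of these data known. The text names the members, the 3 genes most like each member, and Usp18, Lyz2 and sex-linked genes. It also names list genes past 2-fold or among the 5 highest of a list in macrophage-like or monocyte-like cells. Lyve1 (higher, from 1 and 23 UMIs) and Spic (lower) passed 2-fold by plain CPM only, both in macrophage-like cells. Alternatives changed filters, clustering, gating, pseudocount, depth, free RNA, sex of the cells and single cells.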

Additional observations from a re-analysis of the deposited data

Results flagged for a closer look

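Folds of the library labelled knockout over control lay on opposite sides of 1 in macrophage-like and monocyte-like cells for 5 genes, a difference that was not tested. They were 0.919 and 1.63 for Mrc1, 0.797 and 1.17 for Stab1, 1.14 and 0.504 for Cd36, 1.17 and 0.359 for Hmox1, and 1.17 and 0.855 for Fth1.

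Cells with Xist and cells with Y-linked UMIs also lay on opposite sides of 1, likewise not tested. In macrophage-like cells the folds were 1.24 and 0.756 for Mrc1, 6.78 and 0.364 for Cd163 (1 control UMI with Xist), 0.790 and 1.65 for Cd36, and 0.874 and 1.70 for Fth1. In monocyte-like cells they were 3.02 and 0.628 for Mrc1, 1.29 and 0.536 for Stab1, 1.57 and 0.759 for Msr1, and 0.717 and 1.12 for Fth1. In DC-like cells they were 3.10 and 0.0461 for Msr1 (8 control UMIs with Xist, and 1 UMI in 70 Y-linked cells labelled knockout), and 1.10 and 0.795 for Fth1.

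The shallow unnamed cluster, in no comparison above, held Hmox1 at 349 CPM in 58 control cells and 649 CPM in 257 cells of the library labelled knockout, a fold of 1.86 (1.24 to 2.86).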

How the results depend on the processing

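No paired analysis was possible because each group is 1 library, and for the same reason no replicate could be left out. Over 20 alternatives, 126 counts of members past 2-fold were within 1.5 times the reported count and 34 were not. In macrophage-like cells the 1 gene lower (Slc40a1) became 0 with a 5% mitochondrial limit, doublets kept, per-cell gating, a pseudocount of 20 CPM, Y-linked cells only, the chemokine-rich cluster left out or counted as monocyte-like, and clusters weighted alike, and 2 after thinning to 1000 UMIs. In monocyte-like cells the 0 higher became 1 with per-cell gating and 2 in Xist cells, and the 1 lower became 2 with per-cell gating or a pseudocount of 1 CPM and 0 in Xist cells. In neutrophil-like cells the 0 higher became 1 (5% limit, doublets kept, Xist cells, Y-linked cells) or 4 (no minimum of UMIs), and the 0 lower became 1 (doublets kept, libraries clustered apart, richest cell left out), 2 (5% limit, gating, thinning) or 3 (Y-linked cells). In DC-like cells the 0 higher became 2 (5% limit, libraries clustered apart) or 1 (free RNA subtracted, Xist cells), and the 0 lower became 1 (pseudocount of 1 CPM, free RNA subtracted, richest cell left out) or 5 (Y-linked cells). The cause of these moves was not tested. Of 24 member values whose interval excluded 1, 8 kept their direction under all alternatives run. Hmox1 in monocyte-like cells ran from -1.74 to -0.97 and Slc40a1 in macrophage-like cells from -2.04 to -0.34 on the log2 scale. The 4 alternatives on the chemokine-rich cluster, cluster weights and haemoglobin were chosen after seeing the data. Depth limits Cd163 throughout and every value of the 28 neutrophil-like cells.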
